A study of Mus musculus with 8 samples.

Results

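The genes described here are 35 genes of glucose uptake, glycolysis, lactate and pyruvate handling and the pentose phosphate pathway, measured in cultured mouse myotubes that were either re-fed or left without fresh medium. They were chosen by name, and each was read through the probe sets that the array annotation ties to that gene symbol alone. Such a probe set was found for 32 of the 35 genes (61 probe sets), and 29 of these were bright enough to be tested, among 8352 genes tested on the whole array. The glucose phosphate isomerase gene Gpi1, the ubiquitous enolase gene Eno1 and the glucose-6-phosphate dehydrogenase gene G6pdx had no probe set of their own symbol alone. Aldoc, Gpd1 and Pdk3 had one but were too dim on average.

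The cells were C2C12, an established line of mouse muscle precursors whose myoblasts fuse into multinucleated myotubes in low serum, here DMEM with 2% horse serum. The 4 control samples (arrays A, B, C and D) were re-fed every 48 hours from day 4, whereas the 4 starved samples (arrays E, F, G and H) received no new medium over the last 4 days. RNA was taken from both groups on day 8 and hybridised to 1 Affymetrix mouse expression array per sample. The starved group therefore differed from the control group in the age of its medium, with the serum, nutrients and secreted products in it, and no single component was withdrawn on its own. The labels do not say whether the arrays of a group came from separate cultures, so the p-values given below rest on the spread among these samples alone, and that spread may be technical.

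Glycolysis splits glucose into pyruvate in the cytosol, and a muscle cell either sends that pyruvate into mitochondria or reduces it to lactate and exports it. The pentose phosphate pathway branches off after the first phosphorylation and supplies NADPH and ribose. Several steps are encoded by more than one gene, and differentiating muscle raises muscle-enriched isoforms such as Slc2a4 (GLUT4), Pfkm, Pgam2 and Eno3 beside the ubiquitous ones.

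After arrays were scaled to a common brightness, starved myotubes had less RNA for several enzymes of the glycolytic trunk. They had more for 1 glucose transporter and 1 monocarboxylate transporter. Of the 29 genes tested, 6 fell: the phosphofructokinases Pfkl and Pfkm, the phosphoglycerate mutase Pgam1, the muscle enolase Eno3, the pyruvate kinase Pkm and the pyruvate dehydrogenase kinase Pdk1. The 2 that rose were Slc2a4, the insulin-responsive glucose transporter, and Slc16a1 (MCT1), a carrier of lactate and pyruvate. The other 21 did not pass the test, which was limma's moderated test with Benjamini-Hochberg adjustment over all probe sets tested and a threshold of 0.05.

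On the whole array 11.2% of tested genes passed that test, 4.25% as higher and 6.93% as lower in starved myotubes. Among the pathway genes the shares were 6.9% higher and 20.7% lower. The median log2 change of the 29 genes was -0.14 beside 0.01 for all genes tested, and 58.6% of them lay below 0 beside 47.7% of all genes. The count of 6 lower genes was not stable: with each array centred on its median only 2 genes (6.9%) passed as lower beside 6.63% of all genes, with centring on the 75th percentile 2 beside 6.15%, and without an intensity trend in the variance 2 beside 5.7%. Leaving out single arrays gave 5 without A, 3 without B, C, E or F, 2 without D or H and 6 without G, and 2 genes were higher in each case except without B, where 3 were. In these runs 5.22 to 6.43% of all genes passed as lower and 2.71 to 4.46% as higher. The 2 lower genes without D or H made up 6.9%, beside 5.27% and 6.43% of all genes. With each gene's probe sets averaged the count was 8 (27.6%, beside 6.88% of all genes). It was 6 of 23 tested (26.1%, beside 9.56%) with a brightness filter at the 60th percentile, and 4 of 32 (12.5%, beside 4.26%) without a filter.

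**Figure D1:**
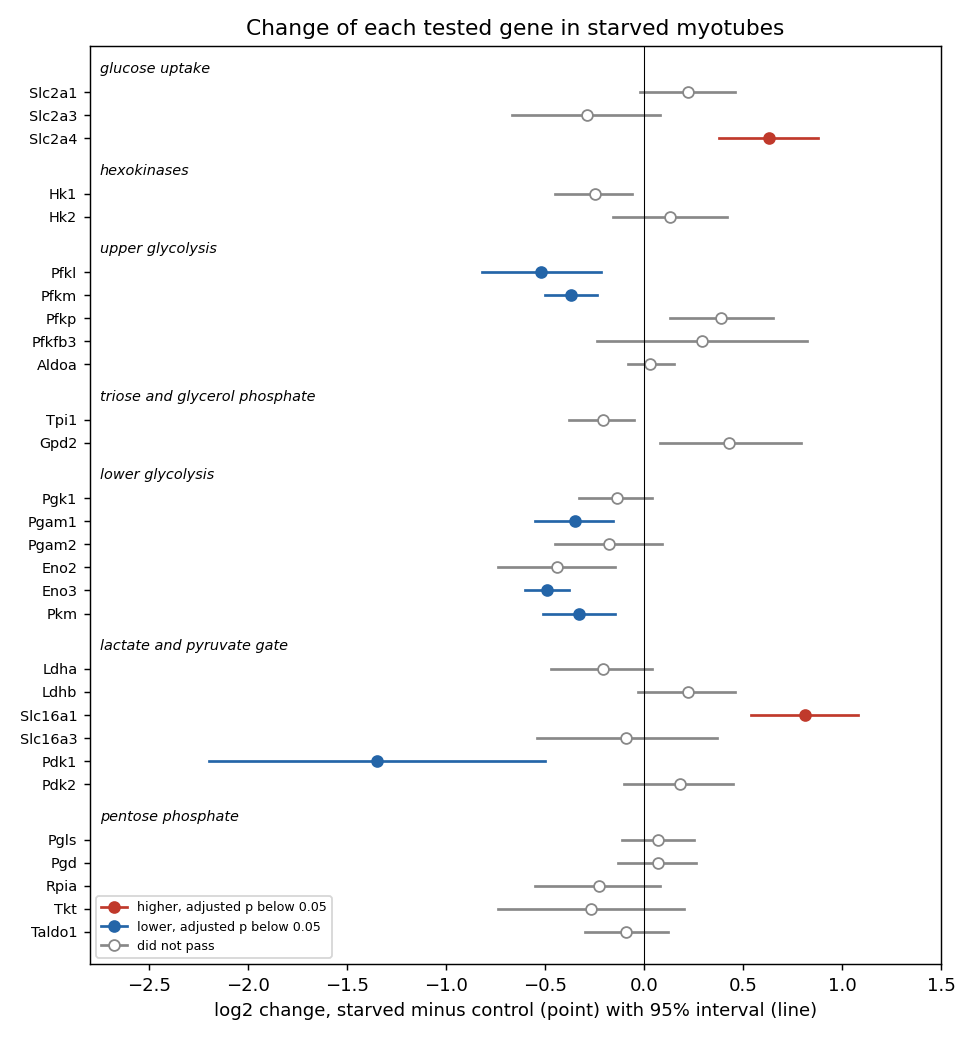
Log2 change (starved minus control, x axis) of each of the 29 tested genes, grouped by pathway step, with 95% confidence intervals. Coloured points passed the adjusted p threshold of 0.05: the 6 lower genes lie between -1.35 and -0.33, and the 2 higher ones are Slc2a4 at 0.63 and Slc16a1 at 0.81.

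The deposited intensities were not on a common scale, and array brightness moved with the groups. The trimmed mean intensity was 317 to 455 on the control arrays and 243 to 366 on the starved arrays, so arrays were quantile normalised before testing and every log2 signal below is after that step. In this design a shift in the RNA of most genes and a difference in array scale cannot be told apart. Each rise or fall after scaling is therefore relative to the other genes on the array. Without scaling, all genes shifted by a median of -0.34, 11 of the 29 genes passed as lower and 0 as higher in limma's test (0 also at an unadjusted p under 0.05), beside 12.3% of all genes lower and 0.539% higher. The median of the 29 genes relative to all genes was -0.14 there instead of -0.16. Unscaled falls of called genes were larger, at -0.91 for Pfkl, -0.66 for Pfkm, -0.75 for Pgam1 and -0.67 for Pkm. Control array B stood apart in its Gapdh control probe sets, which gave a 3'/5' log2 ratio of 1.40, against -0.22 to -0.12 on the other control arrays and -0.23 to -0.04 on the starved ones. The 12 myotube markers were all bright, with summed signals of 96500 to 98700 in control and 90000 to 94600 in starved arrays, and 1 rose (Actn2) and 1 fell (Des). Fibroblast markers had summed signals of 8030 to 8370 in control and 5080 to 6210 in starved arrays, with 3 of 6 lower (Pdgfrb, Col1a1 and Postn). The other fibroblast markers did not pass in limma and were not all lower. Col3a1 differed by -0.08, Thy1 by 0.20 and Pdgfra by 0.56 (adjusted p = 0.0782), with all starved Pdgfra values above all control values. Markers of undifferentiated or cycling cells summed to 749 to 884 and 422 to 632 with 1 of 4 tested lower (Cdk1, at -0.82). Top2a differed by -0.98 (adjusted p = 0.142 in limma), with all starved values below all control values and array H lowest at 5.45. Mki67 differed by -0.04 and Pax7 by -0.10. Of the tested adipocyte (1), endothelial (2) and macrophage (3) markers 0 passed in limma, 0 also at an unadjusted p under 0.05. Whether the signals of these markers came from other cells or from the C2C12 cells themselves was not tested, nor was their part in the results below. In RNA from a whole culture fewer cells of a type and less RNA per cell cannot be told apart.

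**Figure D2:**
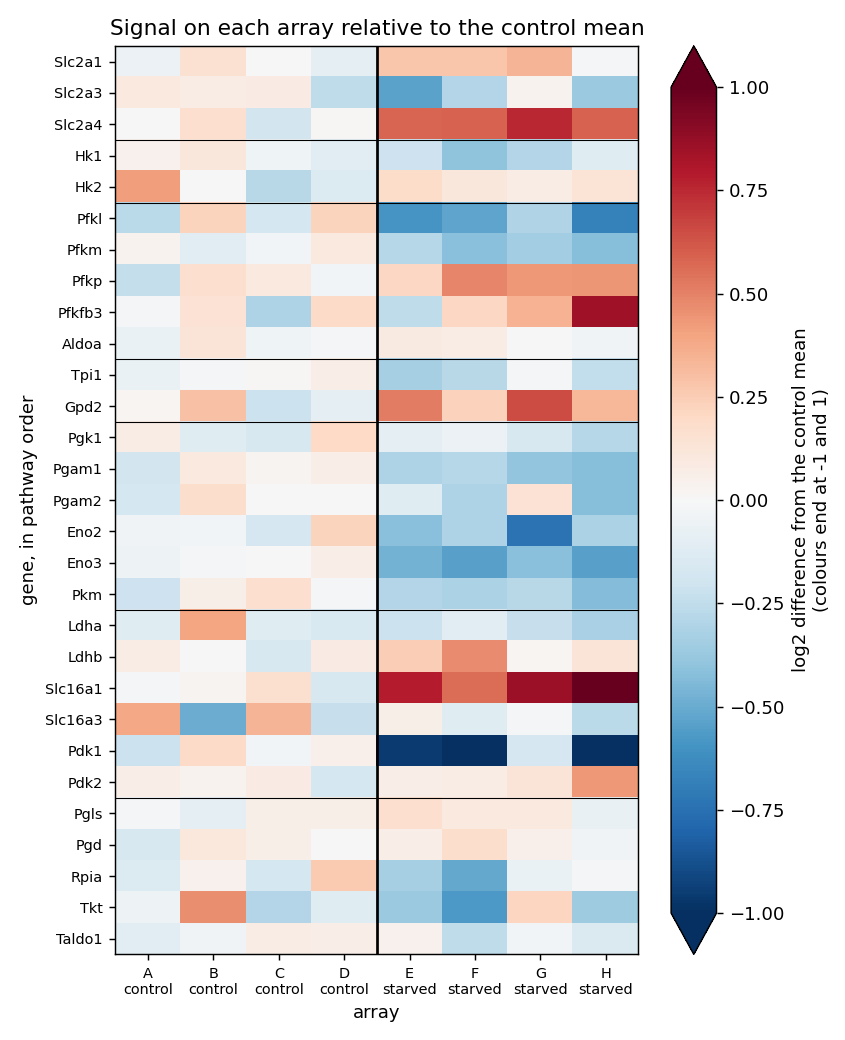
Each row is a tested gene and each column an array (A to D control, E to H starved). Colour is the log2 difference from the gene's control mean, with the colour scale ending at -1 and 1. Eno3, Pfkm and Pgam1 are lower on every starved array than on every control array, and Slc2a4 and Slc16a1 are higher on every starved array.

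Promoter windows are shown for genes of lower glycolysis that fell and for Slc16a1, which had the largest rise of the 29, so that their sequence can be set beside their changes. Each window runs from 250 bases before to 50 after an annotated start, 5′ to 3′ on the gene's strand, from RefSeq on GRCm38.p6. Capitals mark matches, on either strand, to ACGTG (the core of a hypoxia response element), CACGTG (an E-box of the kind bound by MYC and ChREBP partners), CAGCTG (an E-box of the kind bound by myogenic factors) or TGATGNAA (the core of a CHOP and ATF4 composite element). A palindromic CACGTG holds ACGTG on both strands and counts as 2 matches to it.
Eno3, chr11:70656926-70657225, plus strand: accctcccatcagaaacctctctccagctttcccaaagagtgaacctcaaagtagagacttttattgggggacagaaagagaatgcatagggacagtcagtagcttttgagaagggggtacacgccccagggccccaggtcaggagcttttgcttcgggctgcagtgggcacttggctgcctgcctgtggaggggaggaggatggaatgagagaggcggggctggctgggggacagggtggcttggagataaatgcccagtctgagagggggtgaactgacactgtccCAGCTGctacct
Pgam1, chr19:41911621-41911920, plus strand: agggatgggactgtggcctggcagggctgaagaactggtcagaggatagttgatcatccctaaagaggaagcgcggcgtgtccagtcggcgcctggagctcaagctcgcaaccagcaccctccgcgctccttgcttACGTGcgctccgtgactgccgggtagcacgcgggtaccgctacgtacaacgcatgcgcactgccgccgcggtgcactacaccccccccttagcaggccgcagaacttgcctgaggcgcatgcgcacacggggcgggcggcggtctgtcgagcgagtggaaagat
Pkm, chr9:59656326-59656625, plus strand: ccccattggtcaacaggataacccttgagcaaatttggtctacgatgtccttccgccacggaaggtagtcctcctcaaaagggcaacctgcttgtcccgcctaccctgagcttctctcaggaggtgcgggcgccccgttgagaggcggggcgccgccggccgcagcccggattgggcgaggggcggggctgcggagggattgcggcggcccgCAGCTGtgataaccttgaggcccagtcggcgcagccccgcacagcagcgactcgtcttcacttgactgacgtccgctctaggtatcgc
Pkm, chr9:59656977-59657276, plus strand: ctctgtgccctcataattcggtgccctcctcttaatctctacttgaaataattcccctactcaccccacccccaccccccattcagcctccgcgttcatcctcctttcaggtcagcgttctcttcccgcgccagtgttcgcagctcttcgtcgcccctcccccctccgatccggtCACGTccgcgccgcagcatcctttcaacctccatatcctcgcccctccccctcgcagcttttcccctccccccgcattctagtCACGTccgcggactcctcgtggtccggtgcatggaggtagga
Slc16a1, chr3:104638414-104638713, plus strand: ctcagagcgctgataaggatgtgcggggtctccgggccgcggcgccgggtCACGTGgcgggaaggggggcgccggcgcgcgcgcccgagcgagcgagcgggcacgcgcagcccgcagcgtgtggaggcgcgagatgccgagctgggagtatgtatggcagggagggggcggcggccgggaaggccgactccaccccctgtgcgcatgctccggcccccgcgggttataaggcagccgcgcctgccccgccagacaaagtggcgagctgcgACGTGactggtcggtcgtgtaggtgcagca

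Positions are those of a match's first base, with the annotated start as 0. Eno3 had a single CAGCTG, at position 38, and no ACGTG, while Pgam1 had 1 ACGTG, at position -114. The upstream Pkm window held 1 CAGCTG, at position -38, and the downstream one 2 matches to ACGTG, at positions -75 and 8. In Slc16a1 a CACGTG lay at position -200 and a further ACGTG at position 20. Of the 7 called genes with a window, 4 had ACGTG, 2 CACGTG and 3 CAGCTG in at least 1 window, beside 17, 5 and 7 of all 32 pathway genes with a window. A share per gene was not computed for all genes, and the shares that follow are per window. Windows of a gene can overlap, so a site can count more than once. The same ACGTG of Aldoa, for example, lay at position -202 in 1 window and at -126 in another. Over the 48 windows of 32 of the 35 genes, including Gpi1, Eno1 and G6pdx, ACGTG occurred in 20 (41.7%), against 19.6% of all 32851 windows. CACGTG was in 5 (10.4%, against 7.15%), CAGCTG in 7 (14.6%, against 16.3%) and TGATGNAA in 0 (against 3.97%). The GC content ran from 36.7 to 73.7% over the 48 windows, the shares were not corrected for base composition, and a match is a run of letters and not a measured binding site.

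Glucose uptake is the first step, and 1 of its 3 transporters rose. Slc2a4 (probe set 1415958_at) had log2 signals of 7.91, 8.08, 7.73 and 7.92 on control arrays A to D and 8.49, 8.50, 8.66 and 8.50 on starved arrays E to H. All starved arrays lay above all control arrays. The rise was 0.63 ± 0.11 (SE, n = 4 per group; 95% interval 0.38 to 0.88), 1.55-fold, with an adjusted p of 0.0043, and it did not pass only where values were left unscaled (0.28, adjusted p = 0.443). A second Slc2a4 probe set, too dim to be tested, differed by 1.14.

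Slc2a1 (GLUT1), the ubiquitous transporter, read 9.02, 9.23, 9.08 and 8.99 in control and 9.36, 9.36, 9.42 and 9.06 in starved arrays. Starved array H lay among the controls and the other 3 above them, and the change of 0.22 ± 0.11 did not pass (adjusted p = 0.252). The other tested probe sets of Slc2a1 differed by only 0.01 (adjusted p = 0.968) and 0.02 (adjusted p = 0.938). Slc2a3 (GLUT3), a high-affinity transporter, read 7.41, 7.39, 7.40 and 7.06 in control and 6.78, 7.02, 7.35 and 6.94 in starved arrays, a difference of -0.29 ± 0.17 (adjusted p = 0.329) with overlapping groups.

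Hexokinases trap glucose as glucose-6-phosphate, and neither gene passed limma's test (1, Hk1, at an unadjusted p under 0.05). Hk1, the ubiquitous enzyme, read 10.46, 10.53, 10.38 and 10.31 in control and 10.21, 10.02, 10.13 and 10.30 in starved arrays. The groups did not overlap, although control D and starved H were within rounding of each other, and the difference was -0.25 ± 0.09 (adjusted p = 0.106). A dimmer Hk1 probe set differed by 0.51 ± 0.52, with control array B at 5.70 and the other controls at 8.12 to 8.59. Hk2, the insulin-regulated muscle hexokinase, read 10.73, 10.31, 10.04 and 10.18 in control and 10.50, 10.43, 10.39 and 10.45 in starved arrays, a difference of 0.13 ± 0.13 (adjusted p = 0.602). The starved values lay inside the wider control range.

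Phosphofructokinase commits sugar to glycolysis, and 2 of its 3 subunit genes fell. The muscle subunit Pfkm (1416780_at) read 12.64, 12.50, 12.58 and 12.70 in control and 12.32, 12.19, 12.26 and 12.18 in starved arrays. Every starved array lay below every control array. Pfkm fell by 0.37 ± 0.06 (-0.50 to -0.24; 1.29-fold lower, adjusted p = 0.0024), a call lost with median centring (-0.34, adjusted p = 0.101) and with 75th percentile centring (-0.30, adjusted p = 0.103).

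The liver-type subunit Pfkl (1439148_a_at) read 9.73, 10.22, 9.82 and 10.22 in control and 9.41, 9.47, 9.70 and 9.32 in starved arrays. The groups did not overlap, with starved G just under control A. The fall was 0.52 ± 0.14 (-0.82 to -0.22; 1.44-fold, adjusted p = 0.032), and a second Pfkl probe set differed by -0.17 (adjusted p = 0.375). The call was lost without an intensity trend (adjusted p = 0.0601) and without B (0.065), D (0.0955), E (0.0796), F (0.0766) or H (0.075).

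The platelet-type subunit Pfkp read 8.33, 8.74, 8.67 and 8.54 in control and 8.78, 9.06, 9.00 and 9.01 in starved arrays. The starved arrays were all above the control arrays, but the change of 0.39 ± 0.12 (0.13 to 0.65) did not pass at an adjusted p of 0.063. It passed without control B (0.44, adjusted p = 0.041), with array weights (0.031) and with a stricter brightness filter (0.0459), while its second probe set differed by 0.03. Pfkfb3, which makes the fructose-2,6-bisphosphate that activates phosphofructokinase, differed by 0.29 ± 0.24 (adjusted p = 0.522).

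Aldolase A, which cleaves fructose-1,6-bisphosphate and is the main aldolase of muscle, gave nearly equal signals in both groups after quantile normalisation. Its brightest probe set read 13.19, 13.38, 13.21 and 13.23 in control and 13.34, 13.33, 13.26 and 13.22 in starved arrays. The difference was 0.03 ± 0.05 with a 95% interval of -0.08 to 0.15 (adjusted p = 0.76). It was 0.15 with median centring (adjusted p = 0.58), 0.19 with 75th percentile centring (adjusted p = 0.414) and -0.17 without scaling. All 4 Aldoa probe sets gave differences of 0.00 to 0.11. Aldoc, the brain-enriched aldolase, had mean intensities of 49.9 in control and 27.9 in starved arrays on its brighter probe set and was not tested.

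At the triose phosphates, the isomerase Tpi1 leaned down without a call on its brightest probe set. That probe set read 12.16, 12.22, 12.24 and 12.30 in control and 11.90, 11.95, 12.22 and 11.98 in starved arrays, where starved G was level with the controls and the other 3 were below them. The difference was -0.21 ± 0.08 (adjusted p = 0.109). Its 2 other probe sets fell by 0.29 (adjusted p = 0.0415) and 0.26 (adjusted p = 0.0325), and without starved G the brightest one passed as well (-0.28, adjusted p = 0.0185). Tpi1 also passed with its probe sets averaged (-0.25, adjusted p = 0.0205) and without scaling (-0.56, adjusted p = 0.0224). Gpd2, the mitochondrial glycerol phosphate dehydrogenase, differed by 0.43 ± 0.16 (adjusted p = 0.122), and its cytosolic partner Gpd1 had mean intensities of 104 and 64.5 and was not tested.

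For Gapdh, which oxidises glyceraldehyde-3-phosphate and is no member here, only the manufacturer's control probe sets could be read. The 3' set was 13.21 ± 0.04 (SD) in control and 13.10 ± 0.06 in starved arrays. The middle and 5' sets differed by 0.02 and 0.30 with control B and by -0.08 and -0.10 without it, and none was tested.

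All 6 tested genes of lower glycolysis, from phosphoglycerate kinase to pyruvate kinase, had log2 differences below 0, with a median of -0.34, and 3 of them passed. With 75th percentile centring Pgk1 stood at 0.00. Eno3, the muscle enolase, which makes phosphoenolpyruvate, had the smallest adjusted p of the 29. Its probe set 1417951_at read 13.09, 13.12, 13.14 and 13.21 in control and 12.67, 12.60, 12.72 and 12.60 in starved arrays. The gap between the groups was several times the spread within either. Eno3 fell by 0.49 ± 0.05 (-0.60 to -0.38; 1.41-fold lower, adjusted p = 0.000101) and held without any single array, but was lost with median centring (-0.37, adjusted p = 0.113) and 75th percentile centring (-0.33, adjusted p = 0.109). The neuronal enolase Eno2 read 8.43, 8.44, 8.30 and 8.69 in control and 8.05, 8.16, 7.73 and 8.15 in starved arrays. Its groups did not overlap either, and its difference of -0.44 ± 0.14 missed the threshold (adjusted p = 0.0633). Eno2 passed with a stricter brightness filter (adjusted p = 0.0491), with probe sets averaged by gene (0.0451) and without scaling (-0.80, 0.0407). Its adjusted p rose to 0.17 at most among the alternatives.

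Pgam1, the ubiquitous phosphoglycerate mutase (1426554_a_at), read 10.10, 10.38, 10.31 and 10.35 in control and 9.98, 10.00, 9.89 and 9.86 in starved arrays. Every starved array was below the lowest control, A. Pgam1 fell by 0.35 ± 0.09 (-0.55 to -0.16; 1.28-fold, adjusted p = 0.027). That call was lost without an intensity trend (adjusted p = 0.0583) and without B (0.0529), C (0.0768), D (0.0835), E (0.0506), G (0.0662) or H (0.0565). The muscle mutase Pgam2 read 11.04, 11.39, 11.21 and 11.22 in control and 11.09, 10.91, 11.36 and 10.79 in starved arrays, with overlapping groups and a difference of -0.18 ± 0.12 (adjusted p = 0.412).

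Pkm, whose splice forms give pyruvate kinase M1 and M2, read 12.06, 12.33, 12.44 and 12.25 in control and 11.98, 11.95, 11.99 and 11.84 in starved arrays on probe set 1417308_at. Control A was the nearest to the starved arrays, and the groups did not overlap. Pkm fell by 0.33 ± 0.08 (-0.51 to -0.15; 1.26-fold, adjusted p = 0.0246), and the probe set was not used to tell the splice forms apart. The call was lost with both centrings (adjusted p = 0.162 and 0.178), without the brightness filter (0.0512), without an intensity trend (0.0928) and without C (0.0731), D (0.0543), F (0.0599) or H (0.0606). Phosphoglycerate kinase Pgk1 differed by -0.14 ± 0.08 (adjusted p = 0.335), and its other probe sets by 0.00 and -0.06.

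Over all steps, arrays did not overlap in 7 pathway genes that were lower (Hk1, Pfkl, Pfkm, Pgam1, Eno2, Eno3 and Pkm) and in 3 that were higher (Slc2a4, Pfkp and Slc16a1). On the whole array the shares of genes without overlap were 10.3% lower and 8.2% higher. Of the 7 lower genes, 4 belonged to the 6 of lower glycolysis.

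At the exit of glycolysis, Slc16a1 (1415802_at) rose more than any other of the 29 genes. It read 8.42, 8.47, 8.60 and 8.28 in control and 9.23, 9.00, 9.30 and 9.47 in starved arrays. The lowest starved array, F, was well above the highest control, C. The rise was 0.81 ± 0.12 (0.54 to 1.08; 1.75-fold, adjusted p = 0.00147), and it failed the test only where values were left unscaled (0.44, adjusted p = 0.218). Slc16a3 (MCT4), the lactate exporter of glycolytic muscle, read 7.94, 7.05, 7.89 and 7.32 in control and 7.61, 7.43, 7.53 and 7.28 in starved arrays. The starved values sat inside the scattered control values, and the difference was -0.09 ± 0.21 (-0.54 to 0.37, adjusted p = 0.846).

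Lactate dehydrogenase interconverts pyruvate and lactate, and neither subunit gene passed the test. Ldha, the muscle subunit, read 11.70, 12.22, 11.70 and 11.67 in control and 11.61, 11.72, 11.59 and 11.50 in starved arrays. Control B was far above the rest, and the difference was -0.21 ± 0.12 (adjusted p = 0.297), or -0.08 without B (adjusted p = 0.52) and -0.57 without scaling (adjusted p = 0.016). Ldhb, the heart subunit, read 9.43, 9.36, 9.20 and 9.44 in control and 9.60, 9.83, 9.38 and 9.49 in starved arrays, a difference of 0.22 ± 0.11 (adjusted p = 0.284), with 0.03 and 0.13 on its other tested probe sets.

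Pyruvate dehydrogenase kinases restrain the entry of pyruvate into the citric acid cycle. Pdk1 (1423748_at) read 7.76, 8.17, 7.95 and 8.03 in control but 7.02, 5.93, 7.81 and 5.75 in starved arrays, with unscaled intensities of 292.2, 249.8, 239.2 and 317 against 86, 45.8, 182.4 and 41.7. Starved G was level with the controls, so the groups overlapped, and the starved values were widely scattered. Pdk1 fell by 1.35 ± 0.39 (-2.20 to -0.50; 2.54-fold lower, adjusted p = 0.0486), next to the threshold, and its second probe set differed by -0.47 (adjusted p = 0.206). The call was lost without A (0.0804), B (0.0865), C (0.0999), D (0.104), E (0.0627), F (0.13) or H (0.102), and in several other settings. Pdk2 differed by 0.18 ± 0.12 (adjusted p = 0.432), and Pdk3, not tested, had mean intensities of 96.6 in control and 31.3 in starved arrays.

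Of the 5 tested genes of the pentose phosphate pathway 0 passed in limma, and 0 had an unadjusted p under 0.05. The lactonase Pgls differed by 0.07 ± 0.08 (adjusted p = 0.657) and Pgd, which makes NADPH and ribulose-5-phosphate, by 0.07 ± 0.09 (adjusted p = 0.706), with its 4 probe sets between -0.18 and 0.13. On the non-oxidative side, the differences were -0.23 ± 0.14 for the isomerase Rpia (adjusted p = 0.361), -0.27 ± 0.21 for the transketolase Tkt (adjusted p = 0.488) and -0.09 ± 0.10 for the transaldolase Taldo1 (adjusted p = 0.611). Intervals ran from -0.11 to 0.25 for Pgls and from -0.74 to 0.20 for Tkt, so changes of the size seen in Eno3 lay outside the first interval and inside the second.

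Muscle-enriched isoforms were then compared with ubiquitous or other isoforms within each array, where a common brightness factor cancels. For each pair the difference of log2 signals was tested with a two-sided exact permutation test over the 70 labellings of the 8 arrays, whose smallest possible p is 0.0286. The difference between groups shows unequal change, and the level of one probe set against another has no meaning. Of 11 pairs listed, 9 could be tested. In 5 of these the groups did not overlap (exact p = 0.0286), and 0 passed after Benjamini-Hochberg adjustment over the 9 pairs, where those 5 reached 0.0514. With 5 of 9 pairs at the smallest p, that adjusted value is fixed whatever the size of the shifts. A pass thus depends on how many pairs reach the smallest p. No share without overlap was computed for other pairs of genes, so the count of 5 has nothing to be set against. Slc2a4, Pfkm and Slc16a1, called singly above, are members of these pairs, and Slc2a4 is in both pairs of glucose transporters. The pairs are thus independent neither of those calls nor of each other.

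In glucose uptake both differences were larger in starved arrays. Slc2a4 minus Slc2a1 was -1.10, -1.16, -1.35 and -1.07 in control and -0.87, -0.86, -0.76 and -0.55 in starved arrays, a shift of 0.41 (exact p = 0.0286). Slc2a4 minus Slc2a3 moved from 0.51, 0.68, 0.32 and 0.85 to 1.71, 1.48, 1.31 and 1.56, a shift of 0.92 (exact p = 0.0286). Both shifts had all starved arrays above all control arrays.

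In phosphofructokinase the difference narrowed for 1 pair only in this test. Pfkm minus Pfkp was 4.31, 3.76, 3.91 and 4.15 in control and 3.54, 3.13, 3.26 and 3.17 in starved arrays, a shift of -0.76 (exact p = 0.0286), whereas Pfkm minus Pfkl shifted by 0.15 (exact p = 0.4). At the lactate step, Ldha minus Ldhb went from 2.27, 2.85, 2.51 and 2.23 to 2.02, 1.90, 2.21 and 2.02, a shift of -0.43 (exact p = 0.0286), in which control D and starved G nearly touched. Slc16a3 minus Slc16a1 went from -0.48, -1.41, -0.71 and -0.96 to -1.62, -1.57, -1.78 and -2.18, a shift of -0.90 (exact p = 0.0286).

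The remaining pairs overlapped between groups. Hk2 minus Hk1 shifted by 0.38 (exact p = 0.0857), Pgam2 minus Pgam1 by 0.17 (exact p = 0.257) and Eno3 minus Eno2 by -0.05 (exact p = 0.771). The 5 shifts with the smallest exact p were not in a common direction: the muscle-enriched form shifted up relative to its partner in both glucose transporter pairs, and down relative to Pfkp, Ldhb and Slc16a1. Over the alternative settings the shift ranged from 0.34 to 0.55 for Slc2a4 against Slc2a1, was 0.82 or more for Slc2a4 against Slc2a3 and ran from -0.85 to -0.58 for Pfkm against Pfkp. Since 0.0286 is the smallest value of the test, its p says nothing on how far these shifts stood from the spread. For Ldha against Ldhb the exact p rose to 0.0857 without quantile normalisation (leaving values unscaled and both centrings give 1 and the same difference within an array), and to 0.0571 without B, 0.0857 without E, 0.114 without F, 0.0571 without G and 0.0857 without H. For Slc16a3 against Slc16a1 it rose to 0.0571 without E, F, G or H. Without control A, 6 pairs passed after adjustment, the 5 above and Hk2 minus Hk1 (0.51), each with an adjusted exact p of 0.0429. They passed because 1 more pair reached the smallest p. Hk2 minus Hk1 had an exact p below 0.05 in only 1 of its 16 alternatives, and with probe sets averaged its shift was 0.00.

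**Figure D3:**
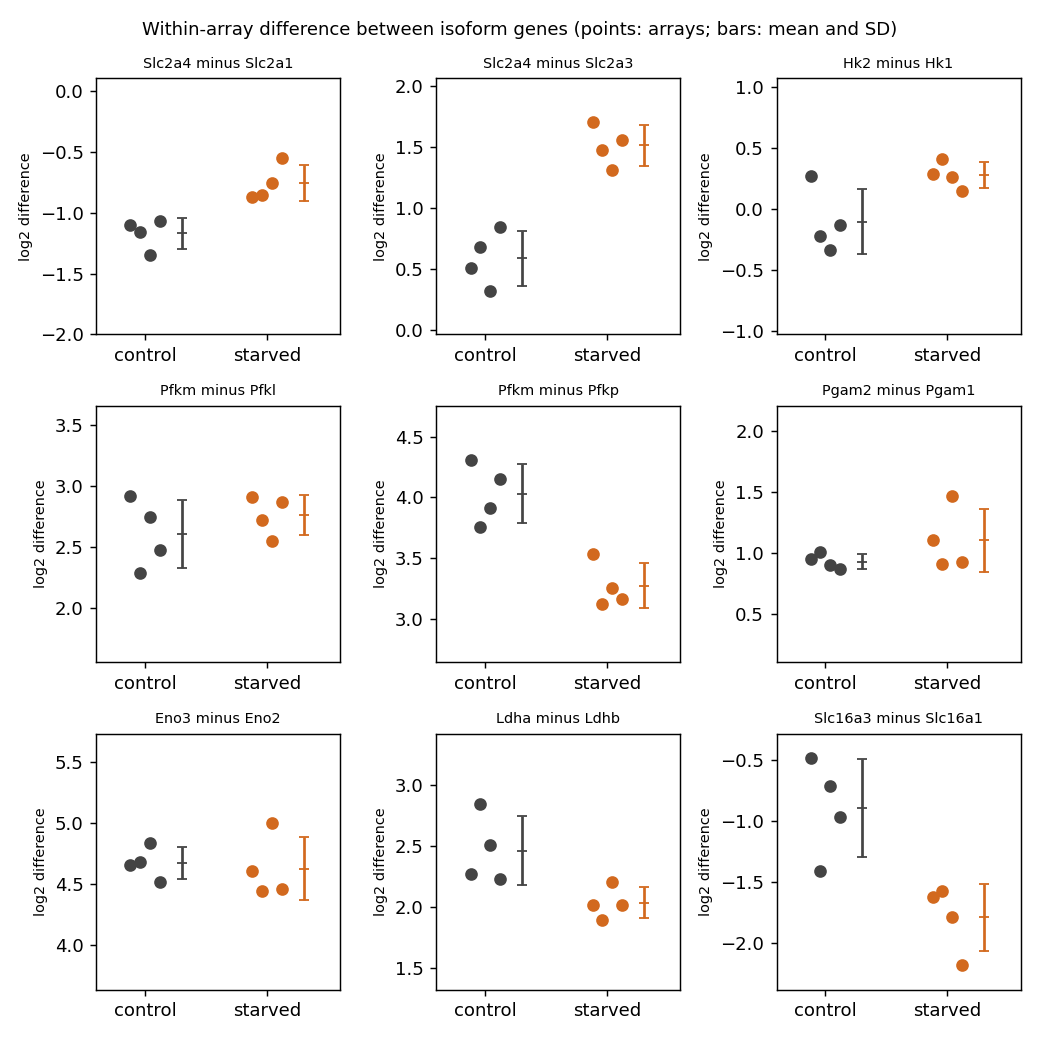
Within-array difference of log2 signals (muscle-enriched minus other isoform, y axis) for the 9 tested pairs. Points are arrays and bars are the group mean and SD, and each panel has its own y range of equal span. The groups do not overlap in the 5 pairs with an exact p of 0.0286, and overlap in the other 4.

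**Figure D4:**
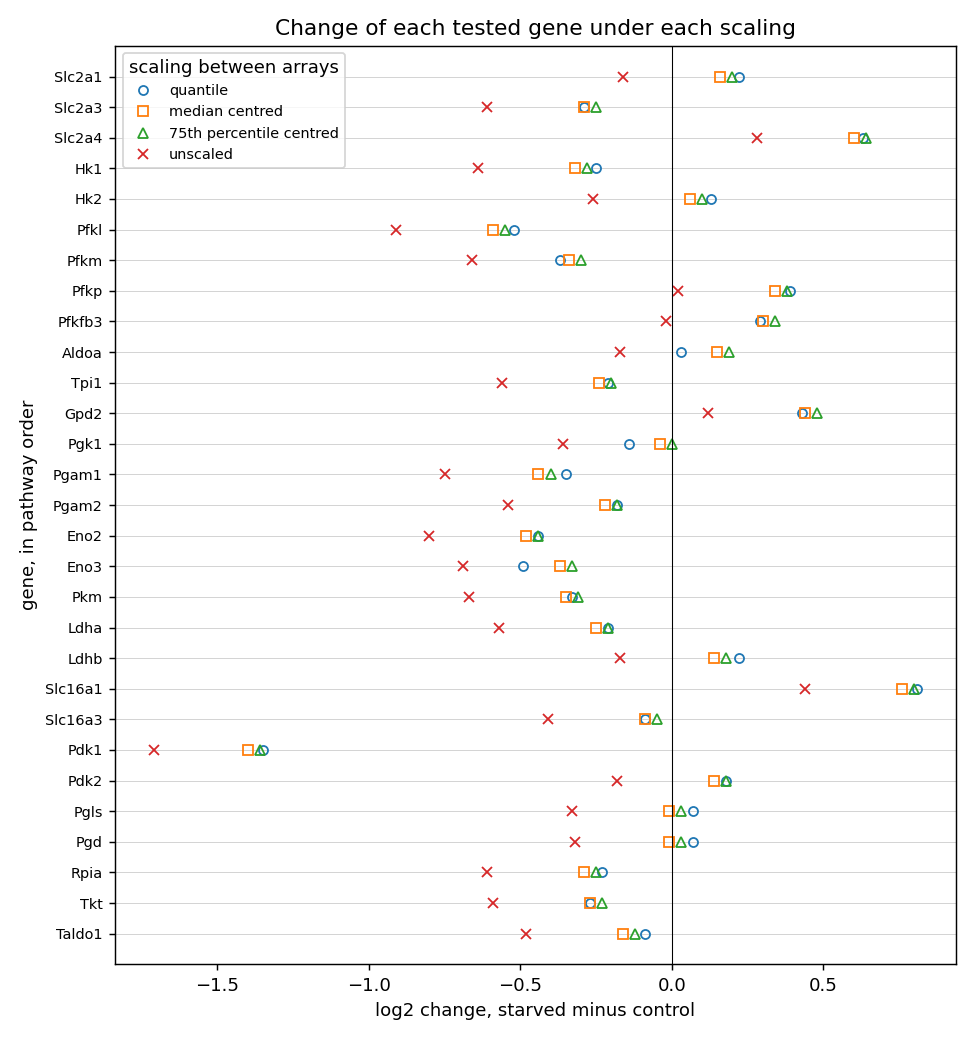
Log2 change (starved minus control, x axis) of each of the 29 tested genes under quantile normalisation, median centring, 75th percentile centring and no scaling, 1 symbol per scaling. Unscaled values lie to the left of the others for every gene, with Slc16a1 at 0.44 instead of 0.81, and Eno3 stays below 0 under all 4 scalings.

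Of 102 other genes of carbohydrate metabolism and its control, 68 were tested, 7 rose and 2 fell, with a median log2 change of 0.11. Of all genes tested on the array, 4.25% rose and 6.93% fell, 11.2% together. Of 12 further genes of glycolysis and gluconeogenesis, 0 passed limma's test and 2 had an unadjusted p under 0.05. Among 8 tested genes of pyruvate entry 1 rose, Emb (embigin), a membrane chaperone of monocarboxylate carriers, which read 7.62, 7.62, 8.14 and 7.39 in control and 8.64, 8.85, 8.74 and 8.67 in starved arrays. Its rise of 1.03 ± 0.16 (adjusted p = 0.00141) left no overlap between the groups, while Bsg (basigin), the main chaperone of MCT1 and MCT4, differed by 0.16. Emb did not pass without scaling (0.69, adjusted p = 0.0649), and with its probe sets averaged the rise was 1.77 (adjusted p = 3.71e-06).

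Among 13 tested regulators 2 rose. Txnip, a glucose-responsive inhibitor of glucose uptake, rose by 0.77 ± 0.12 (adjusted p = 0.00212) and Myc, a transcription factor with many glycolytic targets, by 0.91 ± 0.13 (adjusted p = 0.000948), both lost without scaling (adjusted p = 0.25 and 0.124). Hif1a, the oxygen-regulated factor, differed by 0.27 (adjusted p = 0.42).

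Hypoxia-inducible genes outside glycolysis had a median of -0.04 over 13 tested, of which 2 rose and 1 fell. Vegfa, an angiogenic factor, rose by 0.76 ± 0.13 (adjusted p = 0.00251) and Ero1a, an endoplasmic reticulum oxidase, by 0.85 ± 0.15 (adjusted p = 0.00427), and both were lost without scaling (adjusted p = 0.284 and 0.196). P4ha2, a collagen prolyl hydroxylase subunit, fell by 0.74 ± 0.12 (adjusted p = 0.00212), and its unscaled value was -1.12.

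Of 10 tested genes of NADH shuttles and other NADPH sources, the cytosolic malate dehydrogenase Mdh1 fell by 0.43 ± 0.08 (adjusted p = 0.00741) and its shuttle partner Got1 rose by 0.42 ± 0.12 (adjusted p = 0.0457). The Mdh1 call did not hold when its probe sets were averaged (-0.22, adjusted p = 0.413) and the unscaled value was -0.81, and the Got1 call without A (0.0901), C (0.129), D (0.0889), E (0.107), F (0.122) or H (0.0593). Got1 was also lost without scaling, where its change was 0.02 (adjusted p = 0.946), with median centring (0.103), with 75th percentile centring (0.0667), without the brightness filter (0.0587) and without an intensity trend (0.0743). Of 12 tested genes of pentose phosphate and nucleotide sugar metabolism, Gnpnat1, an enzyme of UDP-N-acetylglucosamine synthesis, rose by 0.47 ± 0.12 (adjusted p = 0.0299), and this was lost without A (0.0895), C (0.0594), D (0.0756), F (0.0852), G (0.0634) or H (0.0634). It was also lost without scaling (0.13, adjusted p = 0.731), without the brightness filter (0.0561) and with its probe sets averaged (0.0707).

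**Figure D5:**
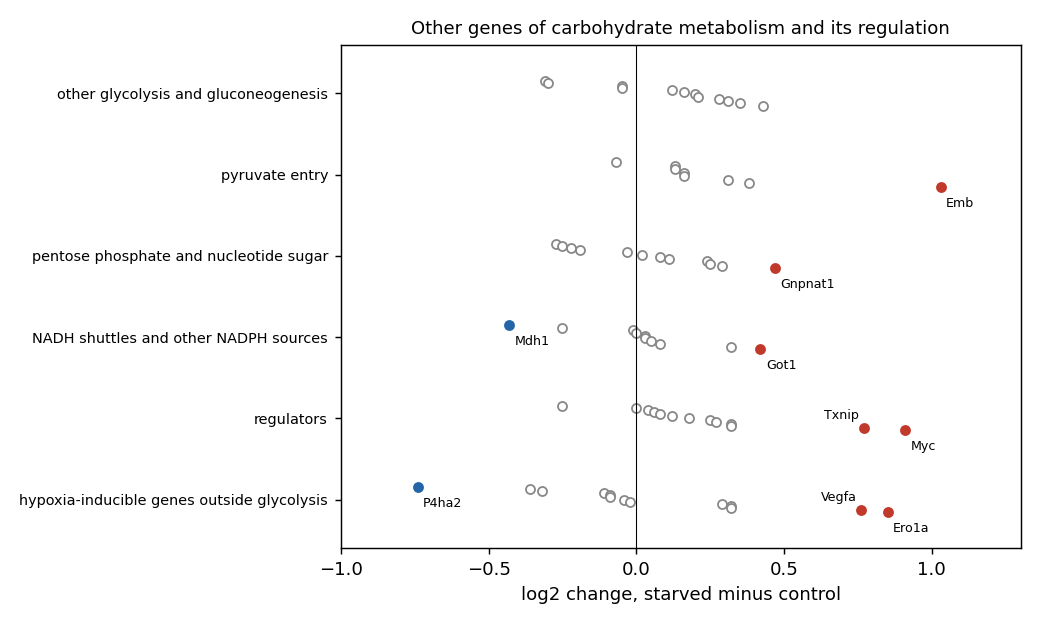
Log2 change (starved minus control, x axis) of the 68 tested genes in the 6 further lists, 1 point per gene. Filled points passed the adjusted p threshold of 0.05 and are named, with 7 higher and 2 lower.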

How the data were processed

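Each sample was hybridised to 1 array. The authors deposited 1 intensity per probe set and array, on a linear scale and with no common brightness. The software, the background step and the build behind them are not given in the sources used here. Probe sets with exactly 1 gene symbol in the array annotation were named. The number of arrays, 4 per group, limits the precision.

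Negative values were set to 0. After adding 10.9 (the 10th percentile over the whole table) to each intensity, log2 values were quantile normalised. The 13575 probe sets brighter on average than the 40th percentile entered 1 linear model in limma 3.58.1 (R 4.3.3), with variances moderated by eBayes along an intensity trend and p-values adjusted by Benjamini-Hochberg over all of them. A gene was called through its brightest tested probe set. A fold change is on the log2(value + offset) scale and understates changes of dim genes. The fit was tested on simulated data.

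The genes, pathway lists, marker lists and isoform pairs were chosen with earlier results of these data known. Every pathway gene is reported, with values on each array for called genes and members of isoform pairs, and called genes are named from the further lists. No p is given over a list. Alternatives covered scaling, offset, filter, variance model, array weights, probe sets per gene and leaving out each array. Array letters are not shared between the groups, so nothing was paired. Protein sequences were not used here.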

Additional observations from a re-analysis of the deposited data

Results flagged for a closer look

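In 5 of 58 groups of 4 arrays (29 genes, control and starved), 1 array lay so far from the other 3 that its gap to the nearest, over the group's range, exceeded Dixon's 95% critical value for 4 samples. Chance alone gives about 1 in 20 such groups. Ldha on control array B was high at 12.22, with the other controls at 11.67 to 11.70, and B is the array with the aberrant Gapdh 3'/5' ratio. On control array D, Slc2a3 was low at 7.06 against 7.39 to 7.41. Starved array H was low for Slc2a1, at 9.06 against 9.36 to 9.42, and high for Pdk2, at 8.58 against 8.21 to 8.28. On starved array G, Slc2a4 was high at 8.66 against 8.49 to 8.50, a gap that is small beside its change between groups.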

How the results depend on the processing

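The 29 genes under 19 alternatives gave 545 combinations, of which 478 kept direction and side of the threshold, 40 lost the call, 12 gained one and 15 changed sign. Without scaling, 0 genes passed as higher and 11 as lower, the median was -0.48, 0 further pathway genes rose and 5 fell (7 and 2 with quantile normalisation), and Slc2a1 (-0.16), Hk2 (-0.26), Pfkfb3 (-0.02), Aldoa (-0.17), Ldhb (-0.17), Pdk2 (-0.18), Pgls (-0.33) and Pgd (-0.32) changed sign. That alternative leaves the brightness of the arrays in. The genes lower numbered 2 with median centring and 2 with 75th percentile centring (Pfkl and Pgam1), and 2 without an intensity trend (Eno3 and Pfkm). Median centring turned Pgls (-0.01) and Pgd (-0.01), and 75th percentile centring turned Pgk1 (0.00). Eno3 minus Eno2 was 0.11 without scaling and with either centring. When each gene's probe sets were averaged, Hk1 was 0.13, Pgd -0.01 and Pfkm minus Pfkl -0.02. Without the brightness filter 6 of 10 isoform pairs passed after adjustment (0.0476): the added pair, Aldoa minus Aldoc (0.34), was also at the smallest exact p, with Aldoc below the filter. The exact p of the other passing pairs was the same as with the filter. Leaving out single arrays gave 2 to 6 lower genes, 0 to 6 isoform pairs (6 without control A), -0.25 to 0.04 for Slc16a3 and -0.17 to 0.02 for Eno3 minus Eno2. The causes of the other moves were not tested. With 4 arrays per group a single isoform pair cannot go below an exact p of 0.0286, Aldoc, Gpd1 and Pdk3 were below the brightness filter, and the expression of Gpi1, Eno1 and G6pdx was not analysed here.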
